A study of Mus musculus with 12 samples.

Results

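A set of 10 genes used as markers of papillary dermis and of the dermal cells of the hair follicle was followed in fibroblasts sorted from mouse back skin before and after wounding. They are Lef1, Apcdd1, Axin2, Prdm1, En1, Trps1, Alpl, Corin, Sox2 and Sox18, and they were taken by symbol from a count table of 25239 genes. All 10 members were in the table, and 7 of them passed the filter on low counts that left 14901 genes for testing. All cells came from wild type male C57BL/6 mice of 8 weeks, and the sort kept live SCA1+ cells without CD45 or CD31, the surface marks of leukocytes and endothelium. Unwounded back skin (NW) was compared with full-thickness wounds made with a 4 mm biopsy punch and harvested after 16 h, 1.5 d or 3 d, and each of the 4 groups had 3 mice. In newborn mouse skin SCA1 has been used to mark fibroblasts of the lower dermal lineage, so the gate may not select for the cells these genes are known to mark. Which dermal layers it kept in these mice of 8 weeks was not tested.

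The upper, papillary dermis lies under the epidermis, and a cluster of its specialised descendants, the dermal papilla, sits at the base of each hair follicle and instructs hair growth. Both depend on canonical Wnt signalling, in which stabilised beta-catenin enters the nucleus and acts through DNA-binding partners of the TCF/LEF family. Lef1 encodes one of these partners, Axin2 encodes a scaffold that promotes destruction of beta-catenin and is a classical feedback target, and Apcdd1 encodes a membrane inhibitor of Wnt that is itself induced by the pathway. Prdm1 (Blimp1) and Trps1 encode zinc finger repressors, En1 encodes a homeobox factor that marks a dorsal dermal lineage, Alpl encodes the tissue-nonspecific alkaline phosphatase long used to stain dermal papillae, and Corin encodes a serine protease of the papilla. Sox2 and Sox18 encode HMG box factors found in papillae of some hair types, and Sox18 is also expressed in endothelium.

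The 12 libraries held between 26389453 and 43493475 counted fragments, so that 3 counts stand for 0.0690 to 0.114 CPM, the counts relative to a common library total. Below, levels are CPM scaled by TMM and given as mean ± SD with n = 3 unless libraries are listed, and a gene was called changed at an adjusted p under 0.05 in edgeR's quasi-likelihood test over all 14901 genes. Ly6a, which encodes SCA1, was at 1053 ± 158 CPM in NW, while Ptprc, which encodes CD45, and Pecam1, which encodes CD31, had group means of at most 4.24 and 1.71 CPM. The 12 keratinocyte markers took 2.66 ± 0.882% of the counts in NW, which compared with 0.941 ± 0.208%, 0.507 ± 0.150% and 0.665 ± 0.573% at 16 h, 1.5 d and 3 d. A single library stood apart by its share of ribosomal RNA: Rn45s, the precursor of ribosomal RNA, took 2.01% of the counts in replicate 3 at 16 h and between 0.328% and 1.26% in the other libraries. Values without that library are given where they differ in call or by over 1.5 times. Of Alpl, Corin, Sox2 and Sox18, the members tied most closely to the dermal papilla, 3 had almost no counts in any group, so this label is borne here by Alpl alone.

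Sequences of 250 bases directly upstream of annotated starts are shown in 5 windows for the genes on which the results turn: Alpl, the member with the largest change, and Axin2 and Lef1, members of the Wnt pathway. They are RefSeq sequences on GRCm38.p6, written 5′ to 3′ on the strand of the gene. Capitals mark the letters searched for as a TCF/LEF motif (CTTTGAA as well as CTTTGAT, and also CTTTGTA as well as CTTTGTT, on either strand).
Alpl upstream start: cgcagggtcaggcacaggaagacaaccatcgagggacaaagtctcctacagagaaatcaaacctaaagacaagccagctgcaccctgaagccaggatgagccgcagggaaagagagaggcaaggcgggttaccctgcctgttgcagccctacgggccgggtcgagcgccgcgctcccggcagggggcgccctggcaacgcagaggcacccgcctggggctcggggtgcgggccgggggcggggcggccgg
Alpl downstream start: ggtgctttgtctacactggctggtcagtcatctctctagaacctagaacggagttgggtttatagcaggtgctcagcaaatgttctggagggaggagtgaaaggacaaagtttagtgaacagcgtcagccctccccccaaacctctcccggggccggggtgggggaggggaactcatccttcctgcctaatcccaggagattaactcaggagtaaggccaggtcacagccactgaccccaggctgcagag
Axin2: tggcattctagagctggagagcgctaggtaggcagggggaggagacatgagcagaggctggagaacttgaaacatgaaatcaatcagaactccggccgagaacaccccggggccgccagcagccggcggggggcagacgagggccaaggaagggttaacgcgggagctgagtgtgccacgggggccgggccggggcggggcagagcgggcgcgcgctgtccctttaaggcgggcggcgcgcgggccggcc
Lef1 first start: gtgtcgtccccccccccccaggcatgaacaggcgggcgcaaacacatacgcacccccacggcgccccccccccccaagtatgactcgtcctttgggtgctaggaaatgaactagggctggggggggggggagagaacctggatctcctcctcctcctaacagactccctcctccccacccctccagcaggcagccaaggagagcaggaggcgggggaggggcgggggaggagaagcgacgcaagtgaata
Lef1 last start: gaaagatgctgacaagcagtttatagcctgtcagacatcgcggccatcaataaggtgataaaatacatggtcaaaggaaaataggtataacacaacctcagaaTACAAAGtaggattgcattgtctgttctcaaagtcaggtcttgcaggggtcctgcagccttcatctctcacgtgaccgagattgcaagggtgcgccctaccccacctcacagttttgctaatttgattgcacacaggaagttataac
The Alpl windows are chr4:137796385-137796634 and chr4:137766476-137766725, both on the minus strand, and the 2 starts lie 29909 bases apart. The Axin2 window is chr11:108920099-108920348 on the plus strand, and the Lef1 windows are chr3:131110047-131110296 and chr3:131156044-131156293 on the plus strand. The start behind the last Lef1 window is not an exon start of the annotation used for counting, whereas the others shown are. In that window TACAAAG, the reverse complement of CTTTGTA, begins 147 bases before the start. Across the 7 members with an entry in the promoter table (11 windows), TCF/LEF letters were found for Lef1, in 1 of its 4 windows, and for Sox2, 207 bases before the start. The same letters occur in 14.8% of 32851 mouse windows of that length, and in at least 1 window of 16.8% of 27025 genes. An AP-1 motif (TGACTCA, either strand) was found in 1 member, En1, 163 bases before the start, against 4.46% of all windows and 5.16% of genes. A RUNX motif (TGTGGT, either strand) occurs in 14% of all windows and was found in none of the 11. The letters searched do not overlap in these windows, and these matches and gaps describe 250 bases only.

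After wounding, Alpl rose to 44.4 times its NW level at 16 h and was 2.37 times that level, not called, at 3 d, Apcdd1 fell 4.59- to 6.52-fold at all 3 times, and En1 differed by less than the spread between mice. Of the 7 tested members, 2 differed among the 4 groups by the F test, where 29.7% of all tested genes did. Against NW, 2 of 7 were called at 16 h, Alpl higher and Apcdd1 lower, with 24.7% of all genes called. At 1.5 d 3 of 7 were called, Alpl higher with Apcdd1 and Axin2 lower, against 24.5% of all genes, and at 3 d 1 of 7, Apcdd1 lower, against 21.1%. These shares do not set the members apart from the genes at large. The median log2 change of the 7 was -0.69, -1.63 and -0.38 at 16 h, 1.5 d and 3 d, beside medians of -0.04, 0.01 and 0.00 over all tested genes. Without 16 h replicate 3, 4 members were called at 1.5 d and 2 at 3 d.

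**Figure D1:**
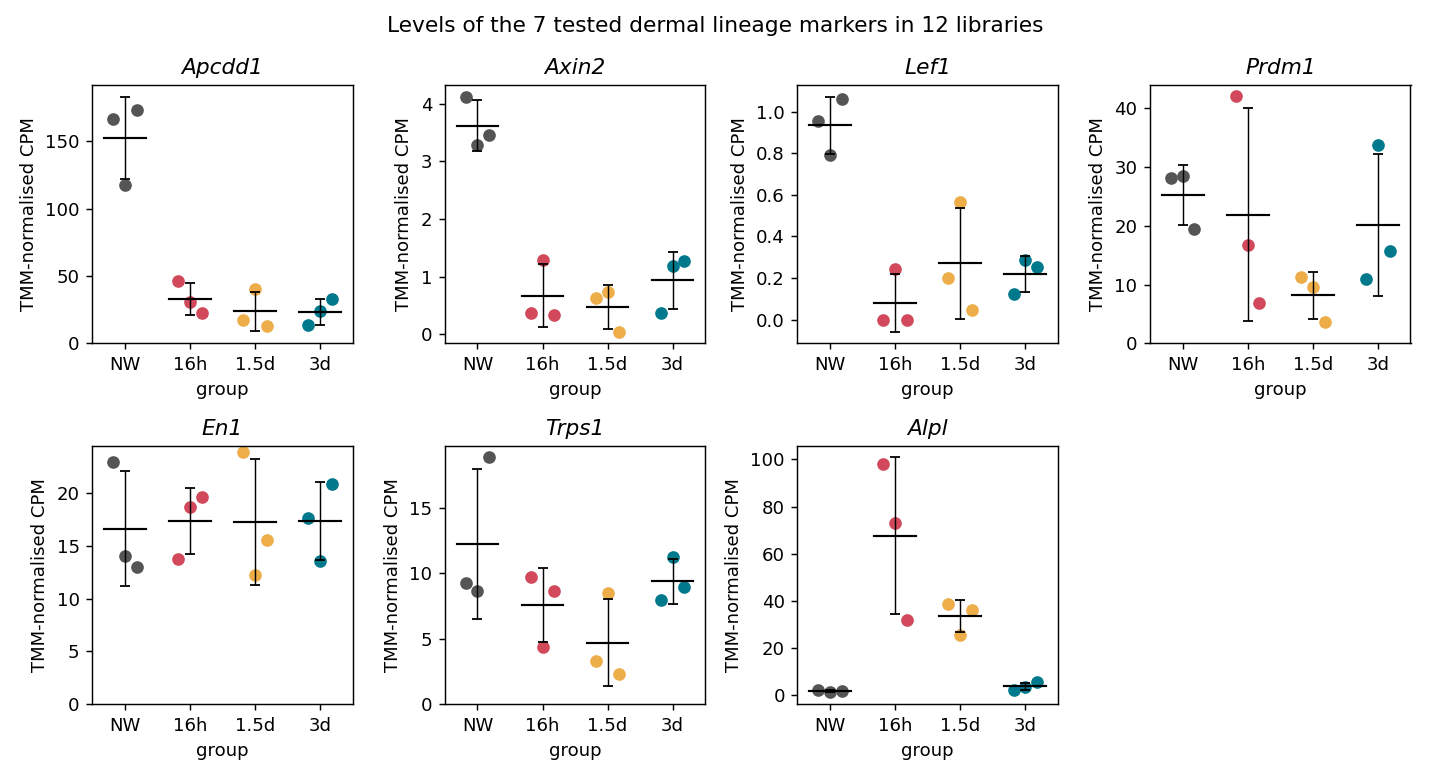
TMM-normalised CPM (vertical axes, linear) of the 7 tested members in the 12 libraries by group (horizontal axes); points are libraries, the horizontal bars are group means and the whiskers are 1 SD (n = 3). All NW libraries of Apcdd1, Axin2 and Lef1 lie above all wound libraries, and Alpl is high at 16 h and 1.5 d only.

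Apcdd1 was the most abundant member in unwounded skin and fell after wounding. It is on chromosome 18 at 62922327-62953814 on the plus strand (mm10). Its level was 167, 117 and 173 CPM in the NW replicates, 46.1, 30.6 and 22.9 at 16 h, 17.7, 40.4 and 13.2 at 1.5 d, and 13.4, 24.1 and 32.7 at 3 d. Every wound library was below every NW library. The log2 change against NW was -2.20 (SE 0.435, adjusted p = 0.00314 by edgeR) at 16 h, -2.68 (SE 0.443, adjusted p = 0.00113) at 1.5 d and -2.70 (SE 0.444, adjusted p = 0.00120) at 3 d. The wound groups overlapped one another, and the largest difference between them was -0.50 (95% interval -1.41 to 0.40) from 16 h to 3 d on the log2 scale. In a bulk sample, fewer cells that express a gene and less of its RNA per cell cannot be told apart.

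The fall of Apcdd1 ran alongside a lower keratinocyte share. Apcdd1 is also expressed in follicle epithelium, and keratinocyte markers took 1.68%, 3.40% and 2.88% of the counts in the NW replicates and at most 1.22% in a wound library. In each of the 3 wound groups the library with the highest share had the highest Apcdd1 level, which was replicate 1 at 16 h (1.17%), replicate 2 at 1.5 d (0.667%) and replicate 3 at 3 d (1.22%). The lowest share and the lowest Apcdd1 level also fell in 1 library at 1.5 d (replicate 3, 0.370%) and 3 d (replicate 1, 0.0737%), but not at 16 h. In NW the library with the highest share, replicate 2, had the lowest Apcdd1 level. With the log2 keratinocyte share as a covariate, the Apcdd1 change was -1.74 (adjusted p = 0.0120 by edgeR) at 16 h and -1.94 (adjusted p = 0.0269) at 1.5 d. At 3 d it was -1.90 and no longer called (adjusted p = 0.0705). In that fit 13.8%, 4.99% and 3.7% of all tested genes were called at the 3 times. Every NW library had a higher keratinocyte share than every wound library, so this fit cannot separate that share from wounding. The 12 hair follicle keratinocyte markers summed to 4.28 to 6.63 CPM of all counts in NW and to at most 1.21 CPM in a wound library. Between 8 and 10 of the 12 had no count in each NW library. Msx2, also listed with the transcription factors of dermal mesenchyme, was the largest part of that sum in NW. The part of keratinocytes, or of other cells that carry Apcdd1, in the change was not tested.

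Axin2 (chromosome 11, 108920349-108950781, plus strand) was low and moved in the same direction as Apcdd1. Its level was 4.12, 3.29 and 3.45 CPM in NW, 0.367, 1.30 and 0.335 at 16 h, 0.633, 0.739 and 0.0443 at 1.5 d, and 0.366, 1.18 and 1.26 at 3 d. No wound library reached the lowest NW library. The change was called at 1.5 d, at -2.93 on the log2 scale (SE 1.01, adjusted p = 0.0499 by edgeR), where replicate 3 held 2 counts. It was -2.43 (adjusted p = 0.0904) at 16 h and -1.95 (adjusted p = 0.178) at 3 d, neither of which passed. The call at 1.5 d was at the threshold: it held in 6 of 22 alternative fits, with adjusted p between 0.00613 and 0.413. Without 1.5 d replicate 3 the change at 1.5 d was -2.38 (adjusted p = 0.112), and with the keratinocyte share as a covariate it was -2.03 (adjusted p = 0.413).

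Lef1 (chromosome 3, 131110297-131224357, plus strand) was near the detection limit in these cells. The NW replicates held 25, 24 and 32 counts, the 16 h replicates 0, 8 and 0, the 1.5 d replicates 6, 23 and 2, and the 3 d replicates 3, 7 and 7. Counts were lower in every wound library than in every NW library, and the gene passed the filter through the NW libraries. In CPM the groups were at 0.935 ± 0.137, 0.0803 ± 0.139, 0.270 ± 0.268 and 0.220 ± 0.0859. The log2 change of -3.45 at 16 h (95% interval -6.85 to -0.06) did not pass (adjusted p = 0.128 by edgeR), nor did -1.78 at 1.5 d (adjusted p = 0.409) or -2.07 at 3 d (adjusted p = 0.358). Without 16 h replicate 2, which held all 8 counts of its group, the change at 16 h was called (adjusted p = 0.0360 by edgeR). That fit left no count at 16 h, so its call cannot show a fall. Without 16 h replicate 3 the change was not called (adjusted p = 0.245 by edgeR).

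Of 16 listed Wnt effectors and feedback genes 15 were tested, and those called against NW were all lower, with 4, 4 and 1 genes at 16 h, 1.5 d and 3 d. The shares of all genes called lower were 11.2%, 10.8% and 9.15%. Notum, a secreted enzyme that inactivates Wnt ligands, was at 2.46 ± 1.49 CPM in NW and had no count at 16 h, which is at least 25.4-fold lower at a floor of 3 counts per library (adjusted p = 0.00448 by edgeR). Like Lef1, Notum passed the filter on low counts through its NW libraries, so its lower wound levels are not independent of that filter. Nkd1, a cytoplasmic inhibitor of the pathway, went from 13.2 ± 6.32 CPM in NW to 4.6 ± 0.882 at 16 h and 4.04 ± 0.342 at 1.5 d, both called. Dkk2, a secreted antagonist, fell from 16.2 ± 2.96 to 4.13 ± 2.10 CPM at 16 h and was at 17.6 ± 6.79 at 3 d, a rise from 16 h that was called (log2 change 2.09, adjusted p = 0.00554). Znrf3, a ligase that removes Wnt receptors, was called only at 3 d, at 5.56 ± 2.01 against 17 ± 3.30 CPM in NW. The median log2 change of the 15 genes was -0.60, -0.86 and -0.71 at the 3 times, and it is the same with Notum at its bound. The keratinocyte share was higher in every NW library than in every wound library. The part of keratinocytes in the lower levels of these Wnt genes was not tested.

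**Figure D2:**
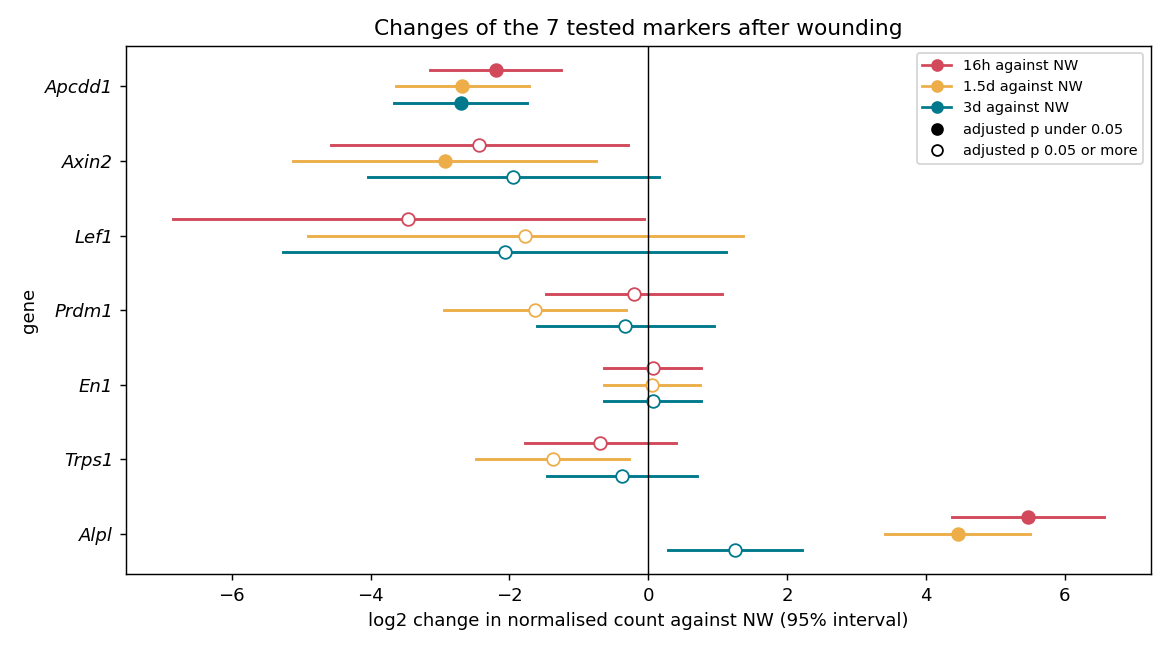
Log2 change in normalised count against NW (horizontal axis) of the 7 tested members (vertical axis) at 16 h, 1.5 d and 3 d; points are edgeR estimates, lines their 95% intervals, and filled points have an adjusted p under 0.05. Apcdd1 lies between -2.70 and -2.20 at all 3 times, En1 lies at 0.05 to 0.06, and Alpl goes from 5.47 to 1.25.

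En1 (chromosome 1, 120602487-120607991, plus strand) was the steadiest member. Its level was 22.9, 14 and 13 CPM in NW, 13.8, 18.7 and 19.6 at 16 h, 23.9, 12.2 and 15.6 at 1.5 d, and 17.7, 13.5 and 20.8 at 3 d. All 4 groups overlapped, and their means were between 16.6 and 17.4 CPM. The log2 change against NW was 0.06 at 16 h (95% interval -0.63 to 0.76), 0.05 at 1.5 d (-0.65 to 0.75) and 0.06 at 3 d (-0.64 to 0.76). The intervals reach from -0.65 to 0.76 in all and do not hold a change of the size seen for Apcdd1.

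Prdm1 (chromosome 10, 44437174-44458748, minus strand) varied as much between mice of a group as between groups. Its level was 28.1, 28.4 and 19.4 CPM in NW, 42.0, 16.7 and 6.88 at 16 h, 11.2, 9.55 and 3.70 at 1.5 d, and 10.9, 33.7 and 15.7 at 3 d. The 1.5 d libraries were all below the NW libraries, whereas 16 h and 3 d overlapped NW. The log2 change at 1.5 d was -1.63 (95% interval -2.94 to -0.33, adjusted p = 0.0660 by edgeR), which did not pass, and the changes at 16 h and 3 d were -0.21 and -0.33. The 1.5 d change passed in 7 of 22 alternative fits. It passed without 16 h replicate 3, the library with the high ribosomal share (adjusted p = 0.0352 by edgeR), and also without 16 h replicate 1 (adjusted p = 0.0382). These libraries had the lowest and the highest Prdm1 level of their group, and they enter the comparison of 1.5 d with NW only through the shared fit.

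Trps1 (chromosome 15, 50654759-50890041, minus strand) shares 25 bases of exon, 0.242% of its exon length, with Mir1907. Its level was 9.23, 8.62 and 18.9 CPM in NW, 9.71, 4.40 and 8.65 at 16 h, 3.33, 8.5 and 2.30 at 1.5 d, and 7.94, 11.2 and 8.96 at 3 d. NW replicate 3 and 1.5 d replicate 2 were high within their groups. The log2 change was -0.69 at 16 h, -1.38 at 1.5 d (95% interval -2.48 to -0.28) and -0.38 at 3 d. None passed, with adjusted p of 0.342, 0.0657 and 0.638 by edgeR, although the 1.5 d and NW libraries did not overlap. Without 1.5 d replicate 2 the change at that time was -2.11 and passed (adjusted p = 0.0133).

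Over the 7 tested members, NW and wound libraries did not overlap for 4, 6 and 4 members at 16 h, 1.5 d and 3 d. The same was true of 41.3%, 40.7% and 40.3% of all tested genes. The members lower without overlap at 1.5 d were Apcdd1, Axin2, Lef1, Prdm1 and Trps1, and at 16 h and 3 d they were Apcdd1, Axin2 and Lef1. Lef1 passed the filter on low counts through its NW libraries, so its lower wound levels are not independent of that filter. Alpl was the member that was higher without overlap at each time.

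Alpl (chromosome 4, 137741731-137796384, minus strand) rose and then fell. Its level was 2.02, 0.921 and 1.63 CPM in NW, 97.9, 72.8 and 31.8 at 16 h, 38.7, 25.5 and 36.1 at 1.5 d, and 2.16, 3.45 and 5.20 at 3 d. Every library at 16 h and 1.5 d was above every library of NW and 3 d. The log2 change against NW was 5.47 (SE 0.507, adjusted p = 2.60e-05 by edgeR) at 16 h, which is 44.4-fold, and 4.46 (SE 0.485, adjusted p = 6.94e-05) at 1.5 d, which is 22-fold. By size it ranked 159 of the 2015 genes called higher at 16 h and 244 of 2034 at 1.5 d. Without 16 h replicate 3, which had the lowest Alpl level of its group, the change at 16 h was 5.81.

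At 3 d Alpl was at 3.60 ± 1.53 CPM against 1.52 ± 0.557 in NW. The libraries did not overlap, but the log2 change of 1.25 (95% interval 0.28 to 2.21) did not pass (adjusted p = 0.0641 by edgeR), and it passed in 2 of 22 alternative fits, DESeq2 and the fit without 16 h replicate 3. Between wound times, Alpl was lower at 3 d than at 16 h by 4.22 on the log2 scale (18.7-fold, SE 0.473, adjusted p = 0.000234), where 9.53% of all genes were called. It was lower at 3 d than at 1.5 d by 3.21 (9.25-fold, SE 0.454, adjusted p = 0.0165), a comparison in which 21 genes, 0.141% of those tested, were called, 0.101% higher and 0.0403% lower. From 16 h to 1.5 d the change was -1.01 (95% interval -1.91 to -0.12, adjusted p = 0.221) and the libraries overlapped.

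The Alpl call from 1.5 d to 3 d depended on single libraries. It was lost without 1.5 d replicate 3 (adjusted p = 0.0552 by edgeR), without 3 d replicate 1 (0.0636) and without 3 d replicate 2 (0.119), with log2 changes of -3.15, -2.95 and -3.17. Besides Alpl, the genes called lower at 3 d than at 1.5 d were Rasgrp3, Fgf23, Il31ra, Cxcl14 and Cyp4b1, which are named here after their values were seen. Fgf23, a hormone that lowers blood phosphate, went from 50.2 to 7.63 CPM. No member was called from 16 h to 1.5 d, where 2 (Prdm1 and Alpl) had an unadjusted p under 0.05, 2.86% of all genes were called (2.39% higher and 0.47% lower), and DESeq2 and limma-voom also called 0 members.

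Alkaline phosphatase activity is also known from neutrophils and endothelium, and some neutrophil markers were higher after wounding, as Alpl was. Of the 8 neutrophil markers 7 were tested, and 4 were called higher at 16 h, 4 at 1.5 d and 2 at 3 d against NW. Among all genes 13.5%, 13.7% and 12% were called higher at these times. Cxcr2, a chemokine receptor of neutrophils, had no count in NW and was at 8.82 ± 5.40, 1.96 ± 0.215 and 0.740 ± 0.641 CPM after 16 h, 1.5 d and 3 d. S100a9, a calcium-binding protein abundant in neutrophils, was at 0.0763 ± 0.132 CPM in NW and at 3.08 ± 1.09, 1.37 ± 0.348 and 0.816 ± 0.411 CPM after wounding. Both were highest at 16 h, as Alpl was, and their lower levels at 3 d than at 16 h did not pass (adjusted p = 0.0642 and 0.300 by edgeR). The 8 markers summed to 2.12 to 10.5 CPM of all counts in NW, 18.1 to 55.5 at 16 h, 18.3 to 51.0 by 1.5 d and 41.5 to 158 by 3 d. The sum at 3 d was mostly Mmp9, a protease that other cells also make, at 92.4 ± 50.1 CPM against 15.4 ± 10.9 at 16 h.

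The 12 endothelial markers summed to 97.6 to 139 CPM of all counts in NW and 36.5 to 37.6 at 16 h. Tek, an angiopoietin receptor, fell from 79.3 ± 21.0 CPM in NW to 9.20 ± 3.65 at 16 h (adjusted p = 0.000658 by edgeR). Plvap, a protein of endothelial diaphragms, was at 16.5 ± 10.9 CPM in NW and 19.9 ± 2.23, 8.12 ± 3.24 and 2.99 ± 0.832 CPM at the 3 times after wounding. Plvap was thus highest at 16 h, but it was not called there against NW (adjusted p = 0.704 by edgeR). Its fall from 16 h to 3 d was called (log2 change -2.73, adjusted p = 0.00363 by edgeR). Of the 9 endothelial markers tested, 0 were called higher and 1 lower at 16 h against NW, where 11.2% of all genes were called lower. Cdh5, which defines endothelium, was at 1.04 ± 0.468 CPM in NW and 0.0927 ± 0.108 at 16 h. Tek was the largest part of the summed endothelial level in NW and Plvap at 16 h, so that sum follows few genes. The part of neutrophils and endothelial cells in the Alpl counts was not tested.

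Of 12 genes listed for phosphate handling and mineralisation beside Alpl 7 were tested, and they took several courses. Of the 7, 2 were called higher and 1 lower at 16 h and at 1.5 d, and 3 were called higher at 3 d, beside 13.5%, 13.7% and 12% of all genes called higher. Slc20a2, a phosphate importer, was at 23.1 ± 3.86 CPM in NW and at 66.6 ± 5.94, 59.8 ± 16.2 and 47.7 ± 4.86 at the 3 times, each called. Spp1, which encodes osteopontin, went from 3.80 ± 2.88 to 277 ± 137 CPM at 3 d, and Enpp1, which makes pyrophosphate, from 2.33 ± 2.90 to 46.9 ± 13.6, both called at that time. Nt5e, an ectoenzyme that makes adenosine from AMP, fell from 80.2 ± 24.2 to 10.5 ± 2.91 CPM at 16 h, where Alpl was highest.

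Corin, Sox2 and Sox18, the other genes tied most closely to the dermal papilla, had almost no counts. Corin (chromosome 5, 72300025-72504540, minus strand) held 29 counts in all: 6 in NW replicate 2, 1 in 16 h replicate 2, 15 in 1.5 d replicate 3 and 7 in 3 d replicate 3. Sox2 (chromosome 3, 34649995-34652460, plus strand) held 1 count, in NW replicate 1, among the 370880971 counts of the 12 libraries. Sox18 (chromosome 2, 181669837-181671640, minus strand) held 44 counts, of which 17 were in NW replicate 2, 23 in 1.5 d replicate 3, and 2 each in 3 d replicates 1 and 3.

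Corin and Sox18 had their highest counts in the same library, 1.5 d replicate 3, which was also the deepest at 43493475 counts. In CPM Sox18 was highest in NW replicate 2, at 0.559 against 0.509 in 1.5 d replicate 3. A library without a count of these genes allows up to 0.0690 to 0.114 CPM, depending on its depth and covering counting error only. With no filter on low counts, none of the 3 genes passed in any comparison over 19745 genes, and the smallest adjusted p was 0.202, for Sox18 at 16 h against NW by edgeR. In 2 of the libraries with Sox18, NW replicate 2 and 1.5 d replicate 3, the summed endothelial level was 109 and 53.4 CPM. These sums, of which Tek was the largest part, were inside or just above the range of their groups' other libraries. Its relative Sox17, an endothelial factor, had 44 counts in NW replicate 2 and 0 in 1.5 d replicate 3. Sox17 was highest in NW replicate 3, at 72 counts, a library that held no Sox18 count. The part of endothelial cells in the Sox18 counts was not tested.

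**Figure D3:**
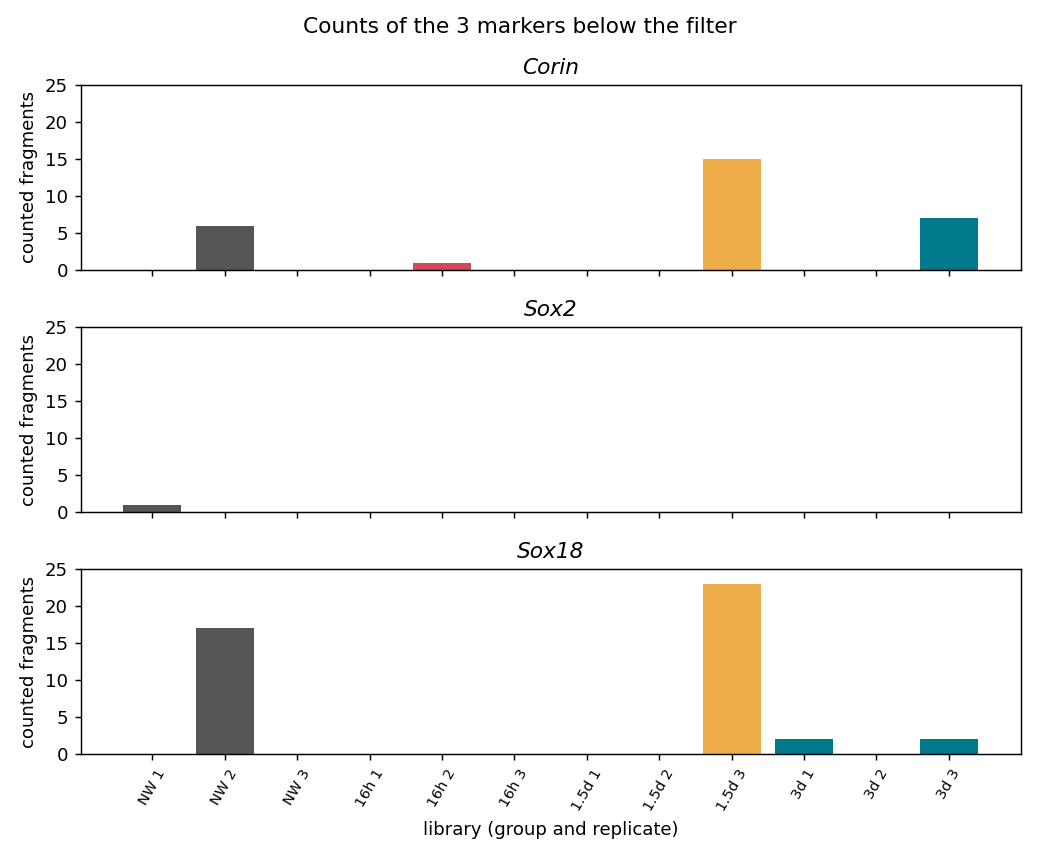
Counted fragments (vertical axes) of Corin, Sox2 and Sox18 in each of the 12 libraries (horizontal axis), coloured by group; the bars are raw counts with no normalization. No library holds more than 23 counts of any of the 3 genes, and Sox2 has 1 count in all.

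Other SOX genes were at varied levels in the same libraries. Of 13 listed, 11 were tested, and 1, 2 and 4 were called higher and 1, 2 and 1 lower against NW at 16 h, 1.5 d and 3 d. Among all genes 13.5%, 13.7% and 12% were called higher and 11.2%, 10.8% and 9.15% lower. Sox11, a factor of embryonic and repairing mesenchyme, rose from 1.07 ± 0.823 CPM to 25 ± 6.14, 32 ± 17.6 and 16.2 ± 8.41. Sox6, a factor known from cartilage and muscle, fell from 33.6 ± 4.99 to 9.93 ± 4.91, 3.28 ± 0.662 and 5.93 ± 4.34 CPM, and both genes were called at all 3 times. Sox4, at 60.7 ± 19.4 CPM in NW, was called at 3 d, at 127 ± 50.3.

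The other papillary genes did not share 1 direction. Of 11 tested (13 listed), 3, 2 and 5 were called higher and 3 lower at each time, beside 13.5%, 13.7% and 12% of all genes higher. The shares of all genes called lower were 11.2%, 10.8% and 9.15%. Pdpn, a membrane glycoprotein of papillary fibroblasts, was also highest at 16 h: 75.8 ± 26.6 CPM in unwounded skin, then 553 ± 42.8, 401 ± 109 and 165 ± 30.6 at the 3 times, each called against NW. Rspo1, which encodes an R-spondin that enhances Wnt signals, fell from 56.3 ± 18.1 to 8.43 ± 4.41, 6.73 ± 4.21 and 3.44 ± 0.859 CPM. Crabp1, a retinoic acid binding protein, rose from 11.4 ± 5.07 to 43.4 ± 6.29, 122 ± 84.1 and 109 ± 52.8 CPM, and Rspo1 and Crabp1 were called at each time.

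The other dermal papilla genes were split as well. Of 16 tested (18 listed), 3, 3 and 4 were called higher and 4, 2 and 1 lower at 16 h, 1.5 d and 3 d. The shares of all genes were 13.5%, 13.7% and 12% higher and 11.2%, 10.8% and 9.15% lower. By total counts without TMM the split at 3 d was 3 higher and 3 lower. Bmp4, a signal of the papilla, fell from 39.5 ± 2.23 CPM to 5.45 ± 0.899, 3.02 ± 1.86 and 3.67 ± 2.23, called at each time. Vcan, a matrix proteoglycan of the papilla, rose from 55.6 ± 22.2 to 367 ± 63.0, 394 ± 19.8 and 361 ± 143 CPM, called at each time. Wnt5a, a Wnt ligand, fell from 53.5 ± 12.7 to 16.9 ± 5.04 and 14.8 ± 1.69 CPM at 16 h and 1.5 d, and was at 32.2 ± 7.87 at 3 d. Ncam1 was at 7.87 ± 2.14 CPM in NW and at 4.01 ± 4.55, 19.8 ± 1.33 and 97.8 ± 27.8 at the 3 times. Versican, BMP4 and Wnt5a are made by many activated or resting fibroblasts besides papilla cells.

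The list for the dermal sheath, the contractile layer around the follicle, held genes called lower at 16 h and genes called higher at 3 d. Of 8 tested, 0 were called higher and 3 lower at 16 h, 1 higher at 1.5 d, and 4 higher at 3 d. Among those lower at 16 h, Mylk was at 11.1 CPM in NW, 1.21 at 16 h and 9.60 at 3 d. The others had no count at 16 h and only 1.13 and 1.09 CPM in NW. From 16 h to 3 d 6 of the 8 were called higher, where 5.86% of all genes were. Acta2, smooth muscle actin, went from 8.53 ± 2.88 CPM in NW to 265 ± 85.6 at 3 d, and it also marks myofibroblasts. Of 10 reticular and hypodermal lineage genes, 0, 1 and 2 were called higher and 2, 1 and 1 lower. For both lists, the shares of all genes against NW were 13.5%, 13.7% and 12% higher and 11.2%, 10.8% and 9.15% lower. Fabp4, a lipid carrier of adipocytes, fell from 22 ± 15 to 1.22 ± 0.585 CPM at 16 h.

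**Figure D4:**
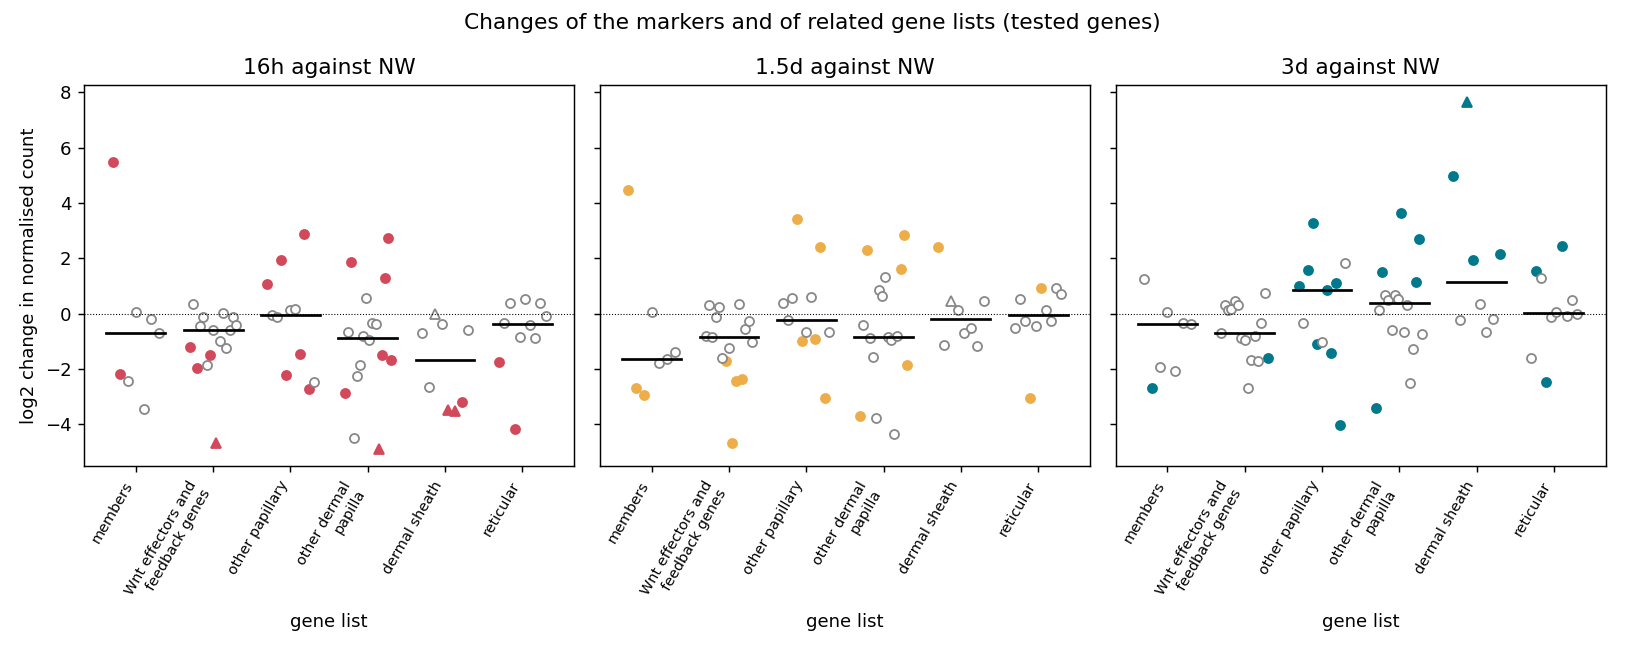
Log2 change in normalised count against NW (vertical axis) for the tested genes of 6 lists (horizontal axis) at 16 h, 1.5 d and 3 d; each symbol is a gene, filled symbols have an adjusted p under 0.05 by edgeR, triangles are bounds for genes without a count in 1 of the groups, and bars are list medians. All called Wnt effectors and feedback genes lie below 0, the papillary and dermal papilla lists have called genes on both sides, and the dermal sheath list has 4 called genes above 0 at 3 d.

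Transcription factors of dermal mesenchyme other than the members mostly rose where called: of 12 tested, 5, 6 and 5 were higher and 1 lower at each time. Among all genes 13.5%, 13.7% and 12% were called higher and 11.2%, 10.8% and 9.15% lower. Runx1 rose from 17.2 ± 5.01 CPM to 165 ± 42.2, 157 ± 41.1 and 184 ± 52.6, and Runx2, which drives bone formation, from 1.01 ± 0.326 to 18.1 ± 5.87, 15.5 ± 3.66 and 32.8 ± 4.36. Twist1 was the gene called lower at each time, at 42.4 ± 5.74 CPM in NW and 17.2 ± 6.26 at 1.5 d, and by total counts without TMM it was not called at 16 h. En1, Prdm1 and Trps1 passed at no time.

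The order of the members, compared per length as CPM per kilobase of exon (RPKM), was rearranged by wounding. In NW, Apcdd1 came first at 44.6 RPKM, followed by En1 (6.51), Prdm1 (4.86), Trps1 (1.18), Axin2 (0.850), Alpl (0.566) and Lef1 (0.254). Of these neighbours, En1 and Prdm1 overlapped between libraries, as did Trps1 and Axin2. At 16 h Alpl was first at 25.1 RPKM, ahead of Apcdd1 (9.71), En1 (6.80) and Prdm1 (4.20), and the first 3 of these each overlapped with the next. At 1.5 d Alpl (12.4 RPKM), Apcdd1 (6.95) and En1 (6.75) led and overlapped in turn. At 3 d Apcdd1 (6.84 RPKM), En1 (6.79) and Prdm1 (3.86) led, overlapping in turn, and Alpl came next at 1.34 RPKM.

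Genes with the most similar course were sought for each tested member as the smallest root mean square difference of centred log2 CPM over the 12 libraries, among 12290 genes. The nearest to Alpl were Cpne7 (0.531), Rbm24 (0.917) and Mcoln2 (0.972). Mcoln2, the most abundant of these, was at 20.6 CPM in NW and 266, 144 and 46.2 at 16 h, 1.5 d and 3 d. The nearest to Apcdd1 were Fam241a (0.304), Wee1 (0.385) and Txnip (0.406). Txnip was at 167 CPM in NW and 27.7, 22.4 and 28.2 after wounding. The first for the other members were Pex11a for Axin2 (0.541), Zfp788 for Lef1 (0.527), Fam43a for Prdm1 (0.458), Picalm for En1 (0.184) and Crybg3 for Trps1 (0.373). These distances are a description, and they are smaller for members that vary less.

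**Figure D5:**
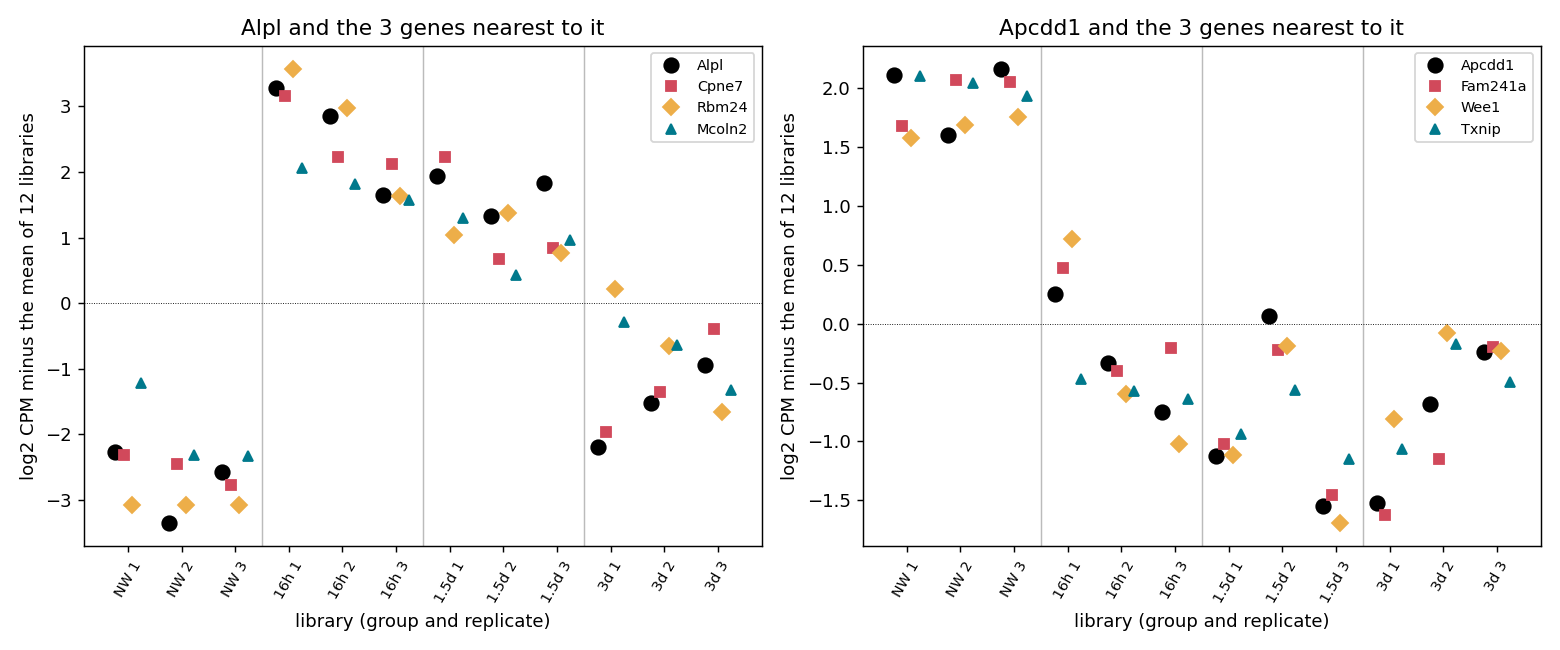
Log2 CPM minus each gene's mean over the 12 libraries (vertical axes) for Alpl and Apcdd1 and the 3 genes with the nearest course, by library (horizontal axes); grey lines separate the groups. Alpl, Cpne7, Rbm24 and Mcoln2 are above their means in all libraries at 16 h and 1.5 d, and Apcdd1, Fam241a, Wee1 and Txnip are highest in the 3 NW libraries.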

How the data were processed

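RNA of 12 sorted fibroblast samples was sequenced as paired ends from full-length cDNA amplified with a SMART-Seq kit, a protocol without strand information. What the authors deposited are raw fragment counts by gene symbol. Per the file headers, counting was by featureCounts 2.0.0 in paired mode on exons (refGene, mm10), setting no option for strand, multi-mapping or overlap. The submitters' processing notes name STAR, SAMtools, Subread and Partek without versions. Fragments that fit several genes were therefore not counted.

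The members and gene lists were chosen with earlier results of these data known. Counts were filtered with filterByExpr (minimum count 10) and scaled by TMM, and edgeR 4.0.16 (R 4.3.3) fitted 1 model with the 4 groups to all libraries, with robust dispersions. Quasi-likelihood tests gave the 6 pairwise comparisons and the F test over the wound groups, with Benjamini-Hochberg adjustment over 14901 genes. Each SE is approximate, derived from the change and the F value of its test. Likeness used log2 CPM with a prior count of 2. Named genes were the 10 members, at most 4 per list by the smallest F test p, the 3 nearest genes per member, and genes of the gate. Rn45s, Sox17 and the genes lower from 1.5 d to 3 d were named after their values were seen. Totals of 26389453 to 43493475 counts set the precision, and the limit of 3 counts accounts for counting error alone. The test was checked on simulated counts. Alternatives were DESeq2 1.42.0, limma-voom (limma 3.58.1), other scalings and filters, dispersions that are not robust, 2-group fits, a replicate block, a keratinocyte covariate and leaving out each library. No promoter sequence was used for 3 members.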

Additional observations from a re-analysis of the deposited data

Results flagged for a closer look

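The effect of wounding on Alpl differed between wound times by a test of the difference itself. The log2 change of Alpl from 1.5 d to 3 d was -3.21 (adjusted p = 0.0165 by edgeR), with 3 d libraries at 2.16 to 5.20 CPM and 1.5 d libraries at 25.5 to 38.7. The log2 change from 16 h to 3 d was -4.22 (adjusted p = 0.000234), with the 16 h libraries at 31.8 to 97.9 CPM. Both comparisons share the 3 d libraries.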

How the results depend on the processing

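No member reversed in any alternative in which either value had passed its test. Of 915 comparisons of a member under an alternative, 878 kept their side of the threshold, 17 passed only in the alternative and 20 passed only in the fit reported. Apcdd1 was called against NW in 22, 22 and 21 of 22 alternatives at 16 h, 1.5 d and 3 d, and Alpl in 22, 22 and 2. At 16 h against NW limma-voom called 4 members, adding Lef1 and Axin2. At 1.5 d DESeq2 and limma-voom each called 5, adding Prdm1 and Trps1. At 3 d DESeq2 called 2 and the fit with the keratinocyte share called 0. The cause was not tested.

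With 1 library left out, members called ranged from 2 to 3 among the groups and at 16 h against NW, from 2 to 4 at 1.5 d, from 1 to 2 at 3 d, and from 0 to 1 from 1.5 d to 3 d. It was 1 from 16 h to 3 d and 0 from 16 h to 1.5 d. Replicate numbers were not found to pair the mice: deviations of same-numbered libraries had correlations of -0.172 to 0.168 and exceeded 0.1 in 2 of 18 pairs. With a replicate block the members called were 2 among the groups, 2, 3 and 1 against NW, and 0, 1 and 1 between wound times, and at 1.5 d Prdm1 took the place of Axin2. Total counts without TMM moved the median gene by -0.111 at 3 d against NW and by -0.189 from 16 h to 3 d. Depth limits Lef1, Corin, Sox2 and Sox18, and the stricter filter left no value for Lef1.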
